A study of Mus musculus with 2 samples.

Results

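Amino acid transporters of 6 solute carrier families (Slc1a, Slc3a, Slc7a, Slc36a, Slc38a and Slc43a) were followed in mouse embryonic stem cells (i-OSKM-ESC, strain 129) in which doxycycline switches on 4 reprogramming factors, Oct4, Klf4, c-Myc and a Sox2 with an epitope tag. The genes were chosen by symbol alone, from probesets annotated to 1 gene, and Slc38a4 was left out. This gave 41 of the 19938 genes on the array, read by 43 probesets. The array labelled +Dox held RNA of i-OSKM-ESC exposed to doxycycline at 4 µg/mL for 24 hours, and the array labelled -Dox held RNA of i-OSKM-ESC that were given fresh medium without the drug. Both cultures were plated on gelatin and both carry the inducible transgenes. The cells were engineered from the KH2 line. With 1 array per group, the differences below carry neither a replicate error nor a p-value, and precision is limited by the number of arrays. No KH2 culture given doxycycline was analysed here, so the drug and the factors cannot be told apart.

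Cells import amino acids through membrane proteins that differ in what they carry and in what drives them. The Slc1a proteins use the sodium gradient to take up glutamate, aspartate or small neutral amino acids. Most Slc7a proteins are light chains that reach the cell surface bound to a heavy chain, Slc3a2 (CD98hc, 4F2hc) or Slc3a1 (rBAT), and exchange one amino acid for another. The Slc38a proteins carry glutamine and small neutral amino acids, the Slc43a family includes transporters of large neutral amino acids, and the Slc36a proteins couple small amino acids to protons, in part at the lysosome. Mouse embryonic stem cells are known to depend strongly on glutamine and threonine, and amino acid supply feeds the growth-controlling kinase mTORC1.

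Values are deposited RMA values on a log2 scale, and a difference is that of the array labelled +Dox minus that of the array labelled -Dox. To pass the expression filter, a gene needed a value of at least 6.48, the median of the whole table, on at least 1 array. The cells read as labelled: all 10 embryonic stem cell markers passed the filter. Their mean value was 11.00 on the array labelled +Dox and 11.42 on the array labelled -Dox. Of the 10, 8 were lower on the array labelled +Dox, as were 6215 of all 11191 genes that passed. Utf1 (-0.95), Tfcp2l1 (-0.89) and Tdgf1 (-0.73) were at least 1.5-fold lower (3 of 10 or 30%, against 3.80% of all genes that passed). Of 8 fibroblast or feeder markers 5 passed, and the mean over the list was 6.06 (+Dox) and 5.79 (-Dox). The markers of extraembryonic endoderm averaged 6.39 (+Dox) and 6.45 (-Dox), with 4 of 6 passing. Those of neural cells averaged 7.06 (+Dox) and 6.69 (-Dox), with 2 of 4 passing. Most of that gap was Map2, with 8.04 (+Dox) and 6.71 (-Dox), while the differences of Nes, Pax6 and Sox1 were 0.24, 0.03 and -0.13. Those of trophoblast averaged 5.93 (+Dox) and 5.90 (-Dox), with 1 of 5 passing. The part of these marker differences in the results was not tested. The induced factors did not settle the labels: Sox2 was 2.01-fold lower on the array labelled +Dox, whereas Pou5f1 (Oct4), Klf4 and Myc were 1.28-fold to 1.34-fold higher. Every direction below therefore rests on the labels.

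No transporter differed 2-fold between the arrays, and 4 differed at least 1.5-fold. Of the 41 genes, 25 passed the expression filter (61.0%, against 56.1% of all genes), and 0 of the 25 were 2-fold higher or lower. Among all 11191 genes that passed, 0.920% were 2-fold higher or more and 0.768% were 2-fold lower or more, so a count of 0 among 25 is near the background. At 1.5-fold, 2 transporters were called higher, Slc1a1 and Slc43a3, and 2 were called lower, Slc1a3 and Slc7a7. The background at that threshold was 3.24% higher and 3.80% lower, and 4 of 25 transporters is 16.0%, against 7.04% of all genes. With so few genes and no replicate, the share is a description of these arrays. Of 331 other solute carrier genes measured, 171 passed the filter, and 12 of these were 1.5-fold higher and 8 lower (11.7%). The median absolute difference of the transporters that passed was 0.28, against 0.22 for the other solute carriers and 0.17 for all genes that passed.

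**Figure D1:**
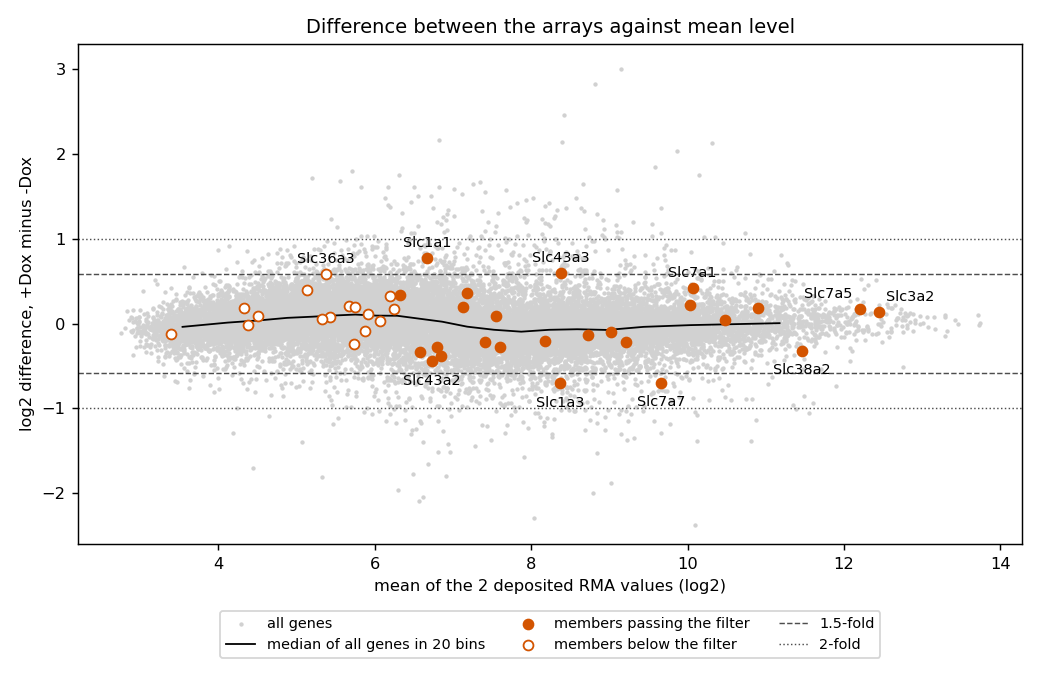
Log2 difference between the arrays (vertical, +Dox minus -Dox) against the mean of both deposited values (horizontal, log2) for 19938 genes in grey and the 41 transporters in orange, filled where they passed the filter. The transporters lie between -0.70 (Slc1a3) and 0.78 (Slc1a1), inside the dotted 2-fold lines, and the black line shows the median of all genes in 20 bins.

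Slc1a1, which encodes the glutamate transporter EAAC1 (EAAT3), had the largest difference among the transporters. Its value was 7.06 on the array labelled +Dox and 6.28 on the array labelled -Dox, a difference of 0.78 (1.71-fold higher). It passed the filter only through the array labelled +Dox, which fixed its sign. Slc1a3, which encodes the glutamate transporter GLAST (EAAT1), went the other way, with 8.02 on the array labelled +Dox and 8.73 on the array labelled -Dox (1.63-fold lower). In bulk RNA, fewer cells expressing a gene and less RNA per cell cannot be told apart. Slc7a7 encodes y+LAT1, the light chain that exports cationic amino acids in exchange for neutral ones and in humans is mutated in lysinuric protein intolerance. It had 9.31 on the array labelled +Dox and 10.01 on the array labelled -Dox (1.62-fold lower). Slc43a3, the remaining gene called, is grouped by sequence with the large neutral amino acid transporters but is known as a transporter of purine nucleobases. Its values were 8.68 on the array labelled +Dox and 8.08 on the array labelled -Dox (1.52-fold higher), just past the 1.5-fold line.

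Each of these genes has 1 probeset, so no second reading of the same transcript exists. For the 492 genes with 2 probesets past the filter, the differences of both probesets varied around their gene's mean with an SD of 0.17. Among genes of like mean level, split into 20 bins, the robust SD of the differences was 0.28 in the bin of Slc1a1, 0.25 in the shared bin of Slc1a3 and Slc43a3, and 0.21 in that of Slc7a7. Those SDs include any response of the cells and are not an error between cultures. Ranked by the size of the difference among 11191 genes that passed, Slc1a1 was number 393, Slc1a3 492, Slc7a7 512 and Slc43a3 737. When 32 was added to each linear value before taking log2, which shrinks the differences of dim genes, Slc1a1 had 0.59 and Slc43a3 0.55. Slc43a3 was then no longer called.

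Promoter windows are shown for the called genes because the arrays compare cells with and without the induction of 4 transcription factors. The RefSeq promoter table (GRCm38.p6) holds 39 windows of 300 bases, each from 250 bases before to 50 after a gene start, for 30 of the 41 genes. Slc43a3 is not among them. Each window was searched on both strands for 5 motifs: CACGTG (the Myc E-box), ATGCAAAT (the Oct4 octamer), CNTTGT (a Sox core), GGGNGNGG (a Klf-type GC box) and TGATGNAA (the amino acid response element bound by ATF4 and C/EBP factors). The octamer and the response element can share bases. Matches are in capitals in the windows below, which are written 5′ to 3′ on the strand of the gene. Slc1a1 lies on the plus strand at chr19:28834885-28835184, Slc7a7 on the minus strand at chr14:54417895-54418194 (the most upstream of 5 windows), and Slc1a3 on the minus strand at chr15:8710758-8711057.
Slc1a1: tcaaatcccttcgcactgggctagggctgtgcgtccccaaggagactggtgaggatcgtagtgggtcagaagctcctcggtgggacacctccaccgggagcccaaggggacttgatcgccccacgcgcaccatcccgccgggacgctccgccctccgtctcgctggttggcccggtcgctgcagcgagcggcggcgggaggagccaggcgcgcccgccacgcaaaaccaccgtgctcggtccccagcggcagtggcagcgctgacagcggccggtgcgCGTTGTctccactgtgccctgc
Slc7a7: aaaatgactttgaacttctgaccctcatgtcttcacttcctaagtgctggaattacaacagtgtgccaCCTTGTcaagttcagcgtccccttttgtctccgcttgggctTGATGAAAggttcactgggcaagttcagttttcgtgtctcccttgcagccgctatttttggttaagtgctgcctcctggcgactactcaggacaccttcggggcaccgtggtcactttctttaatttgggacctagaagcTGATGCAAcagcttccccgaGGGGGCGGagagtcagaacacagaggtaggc
Slc1a3: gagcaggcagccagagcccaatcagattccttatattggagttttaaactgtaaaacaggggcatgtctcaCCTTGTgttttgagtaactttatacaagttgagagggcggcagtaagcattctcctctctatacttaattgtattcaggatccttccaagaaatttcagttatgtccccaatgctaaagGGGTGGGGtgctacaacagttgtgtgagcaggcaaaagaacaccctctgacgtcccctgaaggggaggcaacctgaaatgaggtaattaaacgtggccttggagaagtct

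The Slc1a1 window had a GC content of 70.3% and 1 match, to the Sox core, after the gene start. The Slc1a3 window had 45.3% GC, with 1 Sox core and 1 Klf-type match. The Slc7a7 window had 51.0% GC, with 1 Sox core, 1 Klf-type match and 2 matches to the amino acid response element. None of these 3 windows held the E-box or the octamer, which says only that those letters are not in these bases. Over the 39 windows, the Klf-type box was in 30 (76.9%, against 49.5% of all 32851 windows) and the Sox core in 18 (46.2%, against 41.2%). The E-box was in 7 (17.9%, against 7.15%), the response element in 4 (10.3%, against 3.97%) and the octamer in 1 (2.56%, against 1.74%). The response element was found for Slc1a4, Slc7a11 and Slc7a7, and the octamer for Slc7a11. Some windows of a gene overlap. GC content also differed: the median GC was 61.7% in windows of transporters that passed the filter, 51.3% in those that did not, and 52.7% over all windows. The part of GC content in the motif shares was not tested. A match is a description and not a binding site.

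**Figure D2:**
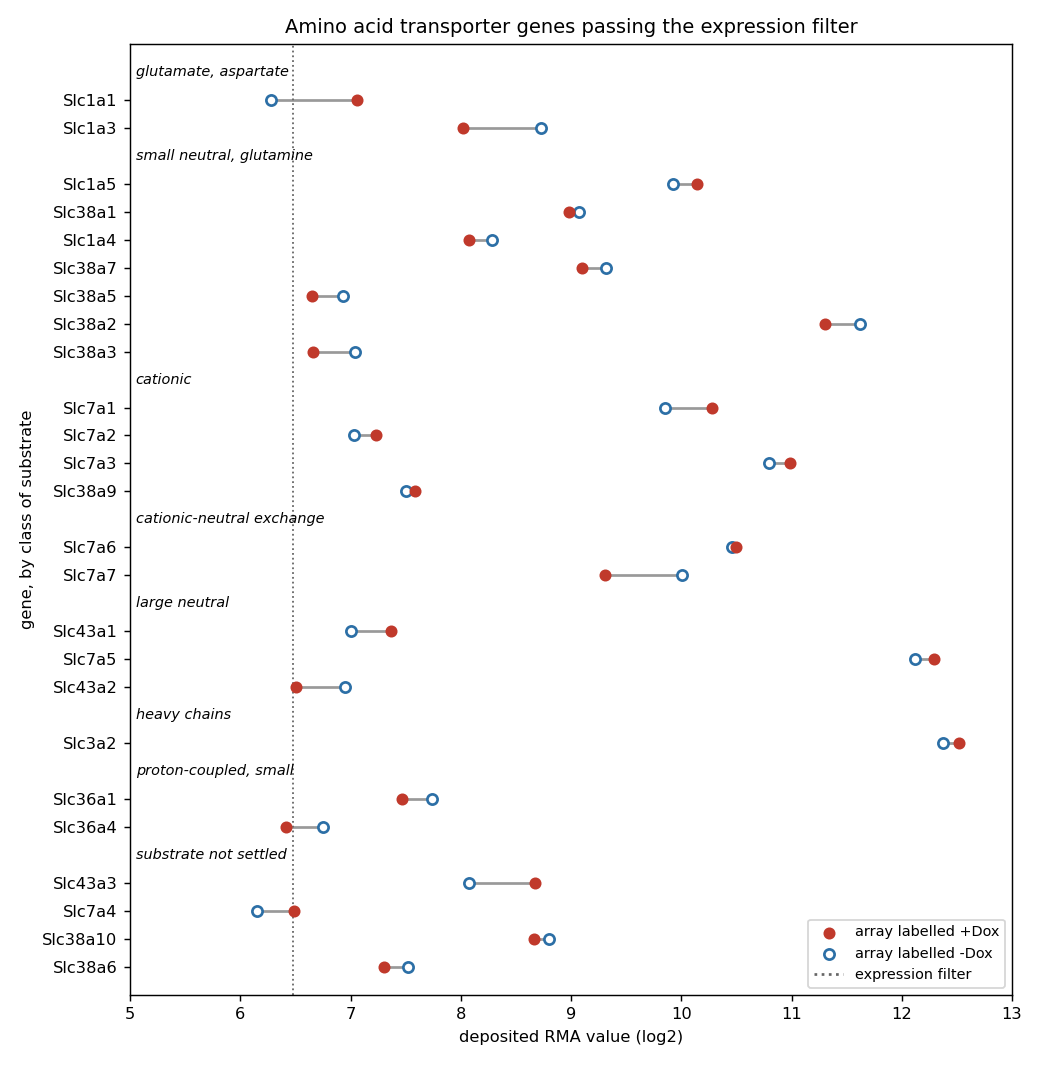
Deposited RMA values (horizontal, log2) of the 25 transporter genes that passed the expression filter, by class of substrate, with the array labelled +Dox as filled red points and the array labelled -Dox as open blue points, 1 array each. The grey lines join both values of a gene, and those of Slc1a1, Slc1a3, Slc7a7 and Slc43a3 are the longest.

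The acidic amino acid transporters take up glutamate and aspartate. Of 6 measured, Slc1a1 and Slc1a3 passed the filter, and these were the called pair with opposite directions. The sign of Slc1a1 was fixed by the filter, which it passed only on the array labelled +Dox. The other 4 lay below the filter on both arrays. Slc1a2 (GLT-1), the main glutamate transporter of astrocytes, had 5.47 on the array labelled +Dox and 5.39 on the array labelled -Dox. Slc1a6 (EAAT4) of Purkinje neurons had 5.78 (+Dox) and 5.57 (-Dox), and Slc1a7 (EAAT5) of the retina had 5.97 (+Dox) and 5.86 (-Dox). Slc7a13 (AGT1), a light chain of kidney, had 4.37 (+Dox) and 4.39 (-Dox). At such levels a transcript cannot be told from background. The cystine-glutamate exchanger Slc7a11 (xCT), which supplies cysteine for glutathione, was below the filter too, with 5.35 on the array labelled +Dox and 5.30 on the array labelled -Dox.

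The transporters of glutamine and small neutral amino acids were lower on the array labelled +Dox in 6 of the 7 genes that passed the filter, each by less than 1.5-fold. Their median difference was -0.22, against -0.03 for all genes that passed, of which 44.4% had positive differences. Slc38a2 (SNAT2), the system A transporter that cells raise when amino acids are scarce, had 11.30 on the array labelled +Dox and 11.62 on the array labelled -Dox (-0.32). Slc38a3 (SNAT3) and Slc38a5 (SNAT5), both of system N, which carries glutamine, histidine and asparagine, had differences of -0.38 and -0.28. Slc38a3 read 6.66 on the array labelled +Dox and 7.04 on the array labelled -Dox, and Slc38a5 read 6.65 (+Dox) and 6.93 (-Dox). Both lie near the filter. Slc38a7 (SNAT7), which exports glutamine and asparagine from lysosomes, had 9.10 on the array labelled +Dox and 9.32 on the array labelled -Dox.

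Within the same class, the sodium-dependent exchangers ASCT1 and ASCT2 differed in sign. Slc1a4 (ASCT1), a transporter of serine and alanine, had 8.08 on the array labelled +Dox and 8.29 on the array labelled -Dox (-0.21). Slc1a5 (ASCT2), a main route of glutamine into growing cells, had 10.14 on the array labelled +Dox and 9.92 on the array labelled -Dox (0.22). It was the member of the class that passed the filter with a higher value on the array labelled +Dox. Slc38a1 (SNAT1) had a mean difference of -0.09 over 2 probesets that disagree: one read 7.66 on the array labelled +Dox and 7.85 on the array labelled -Dox (-0.19), and the brighter one read 10.29 on both (0.0018). By its brighter probeset Slc38a1 is thus not lower. Slc7a10 (Asc-1), Slc7a12 (Asc-2) and Slc38a8 (SNAT8) lay below the filter, with differences of 0.33, -0.12 and 0.17.

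The cationic amino acid transporters, which carry arginine, lysine and ornithine, all had higher values on the array labelled +Dox, and none reached 1.5-fold. All 4 passed the filter, and their median difference was 0.19. Of all genes that passed, 44.4% had positive differences. Slc7a1 (CAT1), the widespread arginine and lysine transporter, had 10.28 on the array labelled +Dox and 9.85 on the array labelled -Dox. Its difference of 0.43 (1.34-fold) compares with a robust SD of 0.18 in its bin. Slc7a3 (CAT3) had 10.99 on the array labelled +Dox and 10.80 on the array labelled -Dox (0.19), and Slc7a2 (CAT2) had 7.23 (+Dox) and 7.03 (-Dox), also 0.19. Slc38a9, grouped here because it senses arginine at the lysosome for mTORC1, had 0.09 over 2 probesets. These gave 8.32 and 6.86 on the array labelled +Dox and 8.22 and 6.79 on the array labelled -Dox, so both were slightly higher on the array labelled +Dox. The signs in this class held with the loess trend removed and with quantile normalization. Adding 32 cannot change the sign of a probeset. The brightest probeset alters only Slc38a9 here, whose probesets share a sign, so neither setting tests these signs.

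The exchangers of cationic for neutral amino acids divided. Slc7a7 was the called gene of this class, while its close relative Slc7a6 (y+LAT2) had 10.50 on the array labelled +Dox and 10.46 on the array labelled -Dox (0.04). Slc7a9 (b0,+AT), the light chain of rBAT in kidney and gut, had 5.34 (+Dox) and 4.94 (-Dox), below the filter on both arrays.

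Large neutral amino acids such as leucine and phenylalanine enter through the LAT transporters. Slc7a5 (LAT1), the leucine and tryptophan exchanger of growing cells, had 12.30 on the array labelled +Dox and 12.12 on the array labelled -Dox (0.18). Slc43a1 (LAT3) had 7.37 on the array labelled +Dox and 7.00 on the array labelled -Dox (0.36, 1.29-fold). Slc43a2 (LAT4) had 6.51 on the array labelled +Dox and 6.95 on the array labelled -Dox (-0.44, 1.36-fold lower). These facilitators of the same family thus differed in opposite directions, both under 1.5-fold. Slc7a8 (LAT2) stayed below the filter, with 6.08 on the array labelled +Dox and 6.05 on the array labelled -Dox.

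The heavy chain gene Slc3a2 had the highest deposited value of the transporters, 12.52 on the array labelled +Dox and 12.37 on the array labelled -Dox (0.14). With Slc7a5, Slc38a2, Slc7a3, Slc7a6 and Slc7a1 it makes up the 6 genes of highest mean value. Probesets respond differently to the same amount of RNA, so this gives no order of transcript abundance. Of the 6 light chains that pair with Slc3a2 (Slc7a5, Slc7a6, Slc7a7, Slc7a8, Slc7a10 and Slc7a11), 5 had positive differences and Slc7a7 a negative one, with a median of 0.05. Only Slc7a5, Slc7a6 and Slc7a7 passed the filter. Below it, 60.8% of all genes had positive differences. With the loess trend removed, Slc7a8 (-0.06) and Slc7a11 (-0.04) turned negative, and the median over the 6 light chains was 0.0055. The other heavy chain gene, Slc3a1, had 5.61 on the array labelled +Dox and 5.85 on the array labelled -Dox, below the filter like its kidney partners Slc7a9 and Slc7a13.

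Of the proton-coupled Slc36a genes, 2 of 4 passed the filter, both lower on the array labelled +Dox by less than 1.5-fold. Slc36a1 (PAT1), a lysosomal exporter of small amino acids, had 7.46 on the array labelled +Dox and 7.74 on the array labelled -Dox (-0.28). Slc36a4 (PAT4) had 6.41 on the array labelled +Dox and 6.75 on the array labelled -Dox (-0.33), and passed only through the array labelled -Dox, which fixed its sign. Slc36a2 (0.20) and Slc36a3 (0.58) lay below the filter on both arrays. In the RefSeq gene order these genes are neighbours: Slc36a3, Slc36a2 and Slc36a1 follow each other with 0 protein-coding genes between them. Their differences did not share a sign. Slc38a1 and Slc38a2 also lie side by side, with -0.09 and -0.32. Slc43a1 and Slc43a3 are separated by 1 protein-coding gene, and both had higher values on the array labelled +Dox (0.36 and 0.60).

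For the remaining genes a main substrate among amino acids is not settled. Slc7a4, which resembles the cationic transporters, had 6.49 on the array labelled +Dox and 6.15 on the array labelled -Dox (0.34), and passed the filter only through the array labelled +Dox. Slc38a6 had 7.30 on the array labelled +Dox and 7.52 on the array labelled -Dox (-0.22). Slc38a10 had 8.66 on the array labelled +Dox and 8.80 on the array labelled -Dox (-0.13). Slc7a14, Slc7a15 and Slc38a11 lay below the filter, with differences of -0.09, 0.08 and 0.19.

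**Figure D3:**
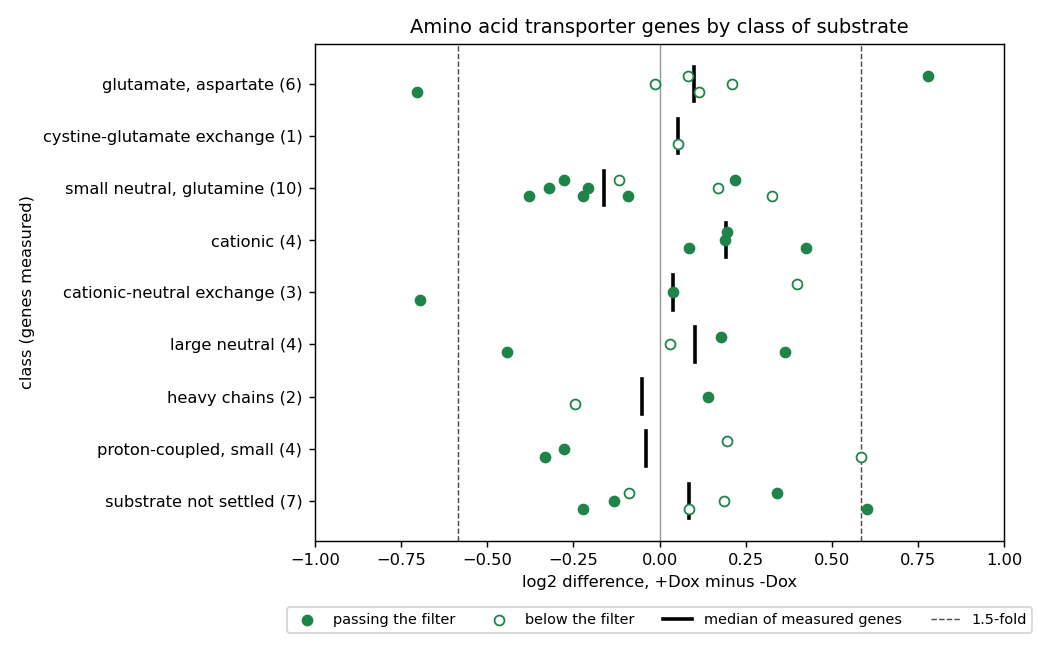
Log2 difference (horizontal, +Dox minus -Dox) of all 41 transporter genes by class of substrate, with the number measured in brackets, filled points for genes that passed the filter and a black bar at the median of each class. All 4 cationic transporters lie right of 0, and 6 of the 7 filled points of the small neutral and glutamine class lie left of it. Of all genes that passed the filter, 44.4% had positive differences.

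By family, the same values were as follows, where 44.4% of all genes that passed had positive differences. Of 7 Slc7a genes that passed the filter, 6 had positive differences and Slc7a7 was the exception, with a median of 0.19 over the 7. Slc7a4 is one of the 6 and passed only through the array labelled +Dox, which fixed its sign. Of 8 Slc38a genes that passed, 7 had negative differences and Slc38a9 was the exception, with a median of -0.22. Slc38a1 is one of the 7, and by its brighter probeset its sign turns. Over all 41 genes the median difference was 0.08, and over the 25 that passed it was -0.09, against 0.01 and -0.03 for all genes. By the brightest probeset of each gene the median over the 25 was 0.0018, since the middle gene is Slc38a1. The sign of the list as a whole thus changes with the dim genes and with the probeset of 1 gene. Below the filter, 12 of 16 transporters had positive differences, as did 60.8% of all genes there. The median of all genes ran from -0.09 to 0.11 across the 20 bins, and with that trend removed by loess the median of the transporters was 0.02 over all 41 and -0.03 over the 25.

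Other genes of amino acid uptake and use were taken from 6 lists. Among 27 other amino acid transporters, 16 passed the filter, and 1 was called at 1.5-fold (6.25%, against 7.04% of all genes in both directions together), which was also past 2-fold. This was Slc6a15 (B0AT2), a sodium-dependent carrier of branched-chain amino acids and proline. It had 8.54 on the array labelled +Dox and 7.34 on the array labelled -Dox (1.20, 2.30-fold higher), more than any of the 41 genes. The aromatic amino acid transporter gene Slc16a10 (0.48), the mitochondrial carrier gene for basic amino acids Slc25a29 (0.46) and Ctns (-0.41), which encodes the lysosomal cystine exporter, followed below 1.5-fold. Slc16a10 had 6.86 (+Dox) and 6.38 (-Dox), and Slc25a29 had 6.49 (+Dox) and 6.03 (-Dox). Both passed the filter only through the array labelled +Dox, which fixed their signs.

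In the list of leucine, lysine, threonine and serine metabolism, 2 of 15 genes that passed were called lower and none higher (13.3%, against 7.04% of all genes), and the median over 16 measured was -0.14. Bcat2, the mitochondrial enzyme that begins branched-chain amino acid breakdown, had 9.45 on the array labelled +Dox and 10.18 on the array labelled -Dox (1.66-fold lower). Bckdha, a subunit of the dehydrogenase of the next step, had 7.82 on the array labelled +Dox and 8.43 on the array labelled -Dox (1.52-fold lower). Bcat1, the cytosolic counterpart of Bcat2, differed in the other direction (0.46), and Mccc1 of leucine breakdown had -0.41. In the list of glutamine, glutamate, proline and cysteine metabolism, 1 of 18 genes that passed was called in each direction (11.1% together, against 7.04%). Gclc, the catalytic subunit of the rate-limiting enzyme of glutathione synthesis, had 9.69 on the array labelled +Dox and 10.34 on the array labelled -Dox (1.57-fold lower). Prodh, which starts proline breakdown, had 8.01 on the array labelled +Dox and 7.42 on the array labelled -Dox (1.51-fold higher). Aldh18a1 of proline synthesis had 0.50, and Ppat, which uses glutamine to begin purine synthesis, had 0.29.

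All 33 genes of mTORC1 amino acid sensing passed the filter, and 24 had negative differences, as did 6215 of the 11191 genes that passed in all. Their median was -0.13 (-0.08 with the loess trend removed), and 1 was called (3.03%, against 7.04% of all genes that passed). This was Rragb, a Rag GTPase that recruits mTORC1 to the lysosome, with 7.79 on the array labelled +Dox and 8.42 on the array labelled -Dox (1.55-fold lower). The sestrin genes Sesn1 and Sesn3, of a family that includes a leucine sensor, had -0.54 and -0.53, and Mios of the GATOR2 complex had -0.50. Of the 18 cytosolic aminoacyl-tRNA synthetase genes, which charge tRNAs with amino acids, 15 had positive differences (83.3%, against 44.4% of all genes that passed), with a median of 0.08 and none called. Their most different genes were Nars (0.29), Sars (0.21 on the log2 scale), Vars (-0.21) and Rars (0.19). In the amino acid response and ATF4 target list, 1 of 23 genes that passed was called (4.35%, against 7.04%), Nupr1 (1.02). The median over 24 was 0.10. Aldh18a1 had 0.50 there as well, Ddit4 -0.50 and Ddit3 0.35. Ddit3 read 6.826 (+Dox) and 6.475 (-Dox) and passed the filter only through the array labelled +Dox, which fixed its sign. The transporter genes that are textbook members of this response were named after their values were seen and had no common direction. Slc3a2 had 0.14, Slc7a5 0.18 and Slc7a1 0.43, while Slc38a2 had -0.32 and Slc1a4 -0.21. Slc7a11 had 0.05 but lay below the filter, and its sign turned with the loess trend removed (-0.04).

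**Figure D4:**
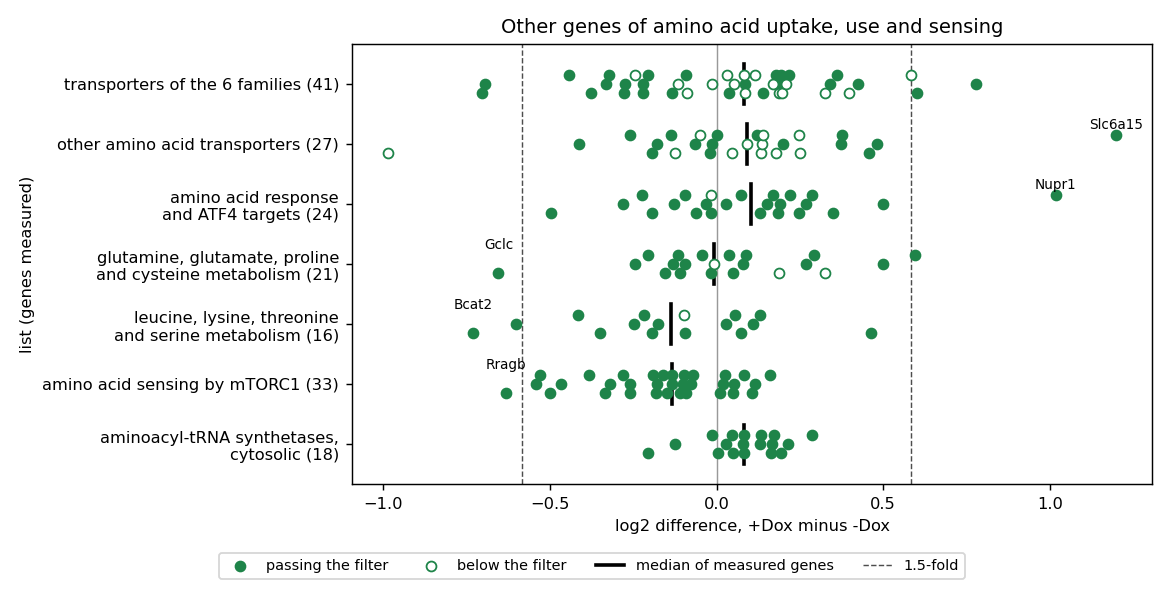
Log2 difference (horizontal, +Dox minus -Dox) of the 41 transporters and of 6 other lists of amino acid uptake, use and sensing, with the number of genes measured in brackets, filled points for genes that passed the filter and a black bar at each median. Slc6a15 at 1.20 and Nupr1 at 1.02 lie furthest right, and the median of the mTORC1 list is at -0.13.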

How the data were processed

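RNA of both cultures was hybridised to 1 Affymetrix whole-transcript array each. The deposited table holds log2 values, made by the authors with Affymetrix Expression Console and RMA per the submitters' processing notes. RMA corrects background, aligns the arrays and sums up the probes of a probeset, so a change shared by most transcripts is invisible and differences of dim transcripts are compressed. The sources used here give no versions and no genome build, and the values were used as deposited. Of 35556 probesets, 21789 were annotated to 1 gene, 1621 to several (0 of them with a transporter of the 6 families) and 12146 were not listed. A gene's value was the mean of its single-gene probesets, and 39 of the 41 genes had 1. A gene was called when its higher value reached the median of the table and it differed at least 2-fold, or 1.5-fold. The members and lists were chosen with earlier results of these data known. Among the 41 transporters, both values are given for those called at 1.5-fold, for the 6 of highest value and for those with more than 1 probeset. Of each other list, up to 4 genes are named, those past the filter that differed most. Other values were added after they were seen. Of the 149 entries of the 6 lists, 8 measured ones repeat a gene of another list, and entries without a single-gene probeset were not analysed here. Sequences are from RefSeq (GRCm38.p6). The array files name no build, so coordinates are given only for the promoter windows, in that RefSeq build. The calling steps were tested on simulated data, where recovery was required only for changes well past each threshold. This says nothing about calls near 1.5-fold. Alternatives were other filters, the brightest probeset, loess (span 0.3), quantile normalization and an offset of 32. The tools were pandas 2.3.3 and NumPy 2.4.6 under Python 3.11.15, matplotlib 3.10.9 for the plots and statsmodels 0.14.6 for loess.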

Additional observations from a re-analysis of the deposited data

How the results depend on the processing

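With 1 array per group, no array could be left out and depth of signal sets no interval. No paired analysis was possible because the groups share only 1 replicate number. The count of transporters at least 2-fold different was 0 in each direction under all 7 alternatives. Stricter filters can only remove genes and the offset only shrinks differences, so those settings could not raise this count. The count at least 1.5-fold lower stayed at 2, Slc1a3 and Slc7a7, under all of them. The count at least 1.5-fold higher was 2 and became 1 in 3 settings. With the filter at the 75th percentile of all values, which 14 transporters passed, 1 was left, Slc43a3. The same gene was left of 22 when both values had to reach the median (chosen after the data were seen). Slc1a1 did not pass in either setting. With the offset of 32, 1 of 25 was left, Slc1a1. The median over transporters passing the filter, -0.09, turned to 0.083 with no filter, which adds 16 dim genes, and to 0.0018 by the brightest probeset, since the middle gene is Slc38a1. Elsewhere it lay between -0.11 and -0.03. Over all 11191 genes passing the filter, the offset left 244 genes 1.5-fold higher and 298 lower, against 363 and 425. The filter at the 75th percentile left 164 and 222, but of 5745 genes passing it, so these counts have a smaller base. With both values at or above the median, 258 were higher and 337 lower of 10339 genes passing. Single transporters kept their sign except Slc38a1 by the brightest probeset, Slc1a2, Slc7a11 and Slc7a8 with loess (-0.01, -0.04 and -0.06) and Slc7a13 with quantile normalization (0.0023). The offset moved 3 of 41 by more than the SD between probesets of a gene: Slc1a1 to 0.59, Slc36a3 to 0.33 and Slc7a9 to 0.21. Without replicates, how far any difference would recur in other cultures is unknown.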
